A study of Mus musculus with 8 samples.

Results

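Potassium channel genes were followed through the time course as every row of the deposited count table whose symbol begins with Kcn and whose mean over the 8 libraries was at least 0.5 CPM, that is read counts scaled to library size with TMM factors. Of the 98 rows with that prefix among 24421 genes in the table, 84 met the minimum. The genes just inside it were Kcnk9 at 0.942 CPM, Kcnj6 at 0.976 CPM and Kcna3 at 1.04 CPM, and those just outside were Kcnrg at 0.477 CPM, Kcne3 at 0.279 CPM and Kcna7 at 0.253 CPM. The 84 genes comprised 68 that encode pore-forming subunits, 12 that encode auxiliary subunits and 4 noncoding transcripts named after a channel gene. All 84 passed the filter on low counts and were tested, and of the 14 genes below the minimum 7 were tested and 1 had no counts in any library.

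Potassium channels let potassium leave the cell and so set the resting potential, end each action potential and limit how often a neuron fires. Voltage-gated (Kv) channels are tetramers whose subunits are named by family, inward rectifiers (Kir) and tandem-pore (K2P) channels carry current near rest, and a further group opens when intracellular calcium or sodium rises. In dorsal root ganglia (DRG), which hold the cell bodies of the sensory neurons of the body, several of these families are known to shape the excitability of pain-sensing neurons, and Kir channels of satellite glia take up potassium around the cell bodies.

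The libraries came from DRG of segments L3 to L5 of wild-type (WT) C57BL/6J mice that were 8 weeks old by the series' design text and male by the study's methods, which give a wider range of ages. They were taken before injection (0d) or 1 day (1d), 3 days (3d) or 30 days (30d) after 20 µl of 1% carrageenan, a seaweed polysaccharide that inflames tissue, was injected into the left hind paw. Each time point had 2 libraries, each made from a pool of 2 to 3 mice, so replicates are pools and not single animals. The 0d mice received no injection, and no group injected with vehicle or kept uninjected to a later day is among the samples, so age and handling cannot be told apart from time after carrageenan.

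The totals lay between 44123208 and 73580338 counts per library. The labels give DRG neurons as the cell type, whereas the methods describe dissected ganglia. All 12 neuron markers were detected, with a summed level between 20798 and 22062 CPM, but all 8 satellite glia markers and all 7 Schwann cell markers were detected too. Replicate 1 of 30d had the lowest Schwann cell sum, 5456.5 CPM against 7687 to 10816 CPM in the other 7 libraries, and the highest red blood cell sum, 515 CPM against 141 to 282 CPM. At 30d the fitted log2 changes of the 7 Schwann cell markers had a median of -0.36 relative to 0d and -0.31 relative to 3d, with none of them called. Replicate 1 of 0d had the highest Schwann cell sum and the highest sums of fibroblast markers, 1917 CPM against 1289 to 1410 CPM, and skeletal muscle markers, 127 CPM against 18.0 to 105 CPM. Without it, log2 fold changes at 1d against 0d were 0.08 for Kcna6 and -0.20 for Kcnj10 (0.10 and -0.18 with all libraries). At 3d against 0d the value was 0.26 for Kcnv1, with and without it. At 30d against 0d the values were -0.65 for Kcnh5 and -0.36 for Kcnb2 (-0.65 and -0.31 with all libraries). The part of these markers in the results was not tested. Replicates of a time point differed by a median of 0.0710 (3d) to 0.151 (30d) on the log2 scale over the 84 genes.

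The potassium channel genes took a steady part of the RNA. They held between 0.656% and 0.682% of all counts in every library, and their summed level per kilobase of gene length, the scale used here to compare genes, lay between 1429 and 1473 CPM per kb. The pore-forming genes alone summed to between 815 and 829 CPM per kb. Levels ranged widely among members, since 32 genes were above 10 CPM per kb and 15 were below 1 CPM per kb, and the 10 highest held 57.2% of the summed level. The median member was at 5.63 CPM per kb, beside 6.10 CPM per kb over all genes tested. Over the 8 libraries 47 members had a coefficient of variation under 10%.

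**Figure D1:**
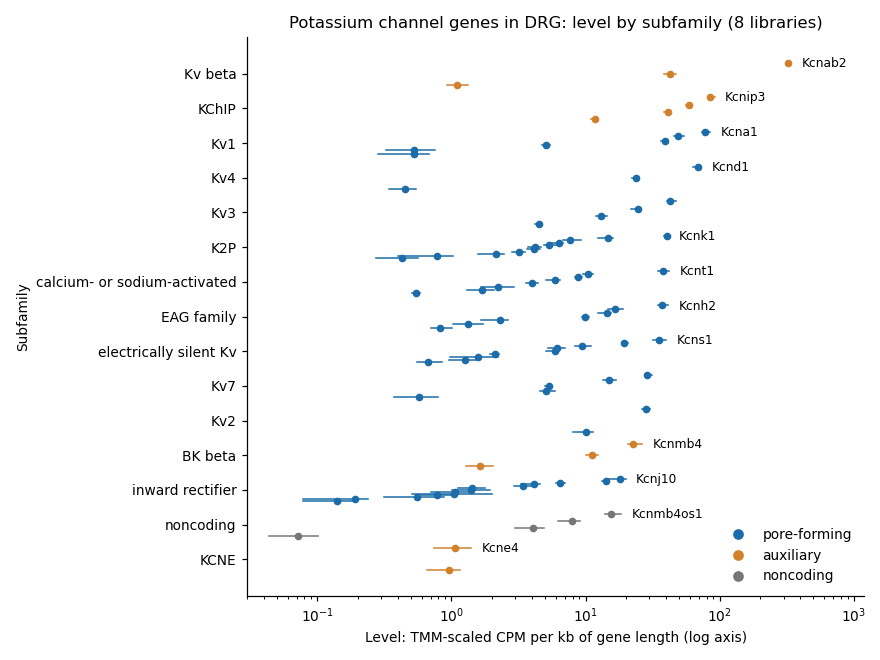
Level of each of the 84 potassium channel genes (x axis, CPM per kb of gene length, log axis) by subfamily (y axis). Points are means over 8 libraries and lines run from the lowest to the highest library, with the gene of highest level named in most subfamilies. Kcnab2 stands highest at 323 CPM per kb, and the inward rectifiers lie mostly below 10 CPM per kb.

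The Kv1 family (Kcna), low-threshold channels that sit beside the nodes of Ranvier of myelinated axons and at the axon initial segment, was the largest pore-forming group by level. It held a mean of 20.9% of the pore-forming level, with 20.0% to 21.9% in single libraries, and 33.3% without division by gene length. Kcna1 (77.3 ± 4.1 CPM per kb, SD over 8 libraries) and Kcna2 (49.4 ± 2.7 CPM per kb) were the leading genes. Kcna4, a fast inactivating member of small-diameter sensory neurons, was at 5.11 ± 0.26 CPM per kb. The members of this family were therefore spread over a wide range, down to 0.525 CPM per kb for Kcna5.

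Kv4 channels (Kcnd), which carry the A-type current that delays firing, followed with 11.3% of the pore-forming level. Kcnd1 (68.8 ± 3.5 CPM per kb) and Kcnd3 (23.9 ± 1.1 CPM per kb) made up nearly all of it, while Kcnd2 was at 0.448 ± 0.067 CPM per kb. K2P channels held 10.9%, but 4.93% without division by gene length, and were led by Kcnk1 (40.2 ± 0.96 CPM per kb) and Kcnk12 (14.8 ± 1.4 CPM per kb). Among the K2P channels known to open with stretch or warmth, Kcnk4 (TRAAK) was at 7.62 CPM per kb, Kcnk2 (TREK-1) at 4.21 CPM per kb and Kcnk10 (TREK-2) at 2.15 CPM per kb. Kcnk3, an acid-sensitive channel, was at 6.35 CPM per kb and Kcnk18 (TRESK), a calcineurin-regulated channel of sensory neurons, at 5.38 CPM per kb.

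Kv3 channels (Kcnc), which allow fast repolarization, held 10.3% and included Kcnc4 at 24.5 ± 1.4 CPM per kb. The EAG family (Kcnh) held 10.1%, with Kcnh2 (ERG1) at 37.4 ± 2.0 CPM per kb and Kcnh1 (EAG1) at 9.91 ± 0.41 CPM per kb. The electrically silent Kv subunits, which form no channel alone but join Kv2 subunits and change their gating, held 9.96% (5.65% without division by length), led by Kcns1 (35.3 ± 2.6 CPM per kb) and Kcns3 (19.4 ± 0.84 CPM per kb). The Kv2 genes, whose products they join and which encode delayed rectifiers, held 4.70% (8.15% without division by length), with Kcnb2 at 10.1 ± 1.2 CPM per kb.

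Calcium- or sodium-activated channels held 8.69% of the pore-forming level. Kcnt1, the sodium-activated channel Slack, was the highest at 37.7 ± 2.6 CPM per kb, with its relative Kcnt2 at 2.24 CPM per kb. The small-conductance calcium-activated genes Kcnn1 and Kcnn2 were at 10.5 and 5.87 CPM per kb, the intermediate-conductance gene Kcnn4 at 8.83 CPM per kb and the large-conductance (BK) gene Kcnma1 at 3.97 CPM per kb. Kv7 channels (Kcnq), which carry the M-current that holds neurons near rest, held 6.69%, with Kcnq5 at 5.34 CPM per kb and Kcnq3 at 5.08 CPM per kb. Inward rectifiers held 6.42%, led by Kcnj10, the Kir4.1 channel of satellite glia, at 18.0 ± 1.8 CPM per kb. Kcnj11, the pore of the ATP-sensitive channel of neurons, was at 4.10 CPM per kb, Kcnj2 at 1.41 CPM per kb and Kcnj8, the ATP-sensitive pore of pericytes, at 1.07 CPM per kb.

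Auxiliary subunits included the member of highest level. Kcnab2, a Kv beta subunit that binds Kv1 channels, was at 323 ± 9.2 CPM per kb, above 99.3% of the genes tested, and Kcnab1 was at 42.8 CPM per kb. The KChIP genes, whose calcium-binding products assemble with Kv4 channels, were led by Kcnip3 (85.1 ± 3.5 CPM per kb), with Kcnip4 at 59.0 CPM per kb and Kcnip1 at 11.8 CPM per kb. The BK beta subunit Kcnmb4 was at 22.7 CPM per kb and Kcne4, of the KCNE family, at 1.07 CPM per kb. Kcnmb4os1, at 15.5 CPM per kb, led the noncoding transcripts. Reads were counted without strand, and 62.1% of the exon bases of Kcnmb4 lie opposite exons of Kcnmb4os1 or Kcnmb4os2, so counts of these 3 genes cannot be told apart over that stretch.

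**Figure D2:**
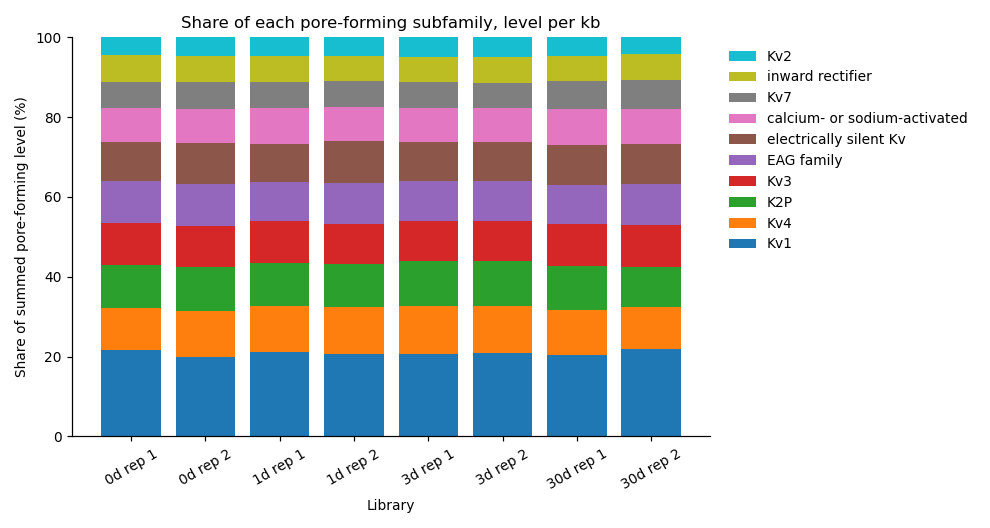
Share of each pore-forming subfamily in the summed pore-forming level per kb (y axis, percent) in each of the 8 libraries (x axis). The shares changed little between libraries, Kv1 lying between 20.0% and 21.9% and Kv2 between 4.29% and 5.07%.

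The first question was whether any of these genes changed with paw inflammation, compared with 0d. At 1d none of the 84 genes passed the threshold of an adjusted p under 0.05 in edgeR's quasi-likelihood test, where 0.346% of all 17328 genes tested did. At an unadjusted p under 0.05 there were 2 of 84 (2.38%, or 0 without replicate 1 of 3d and 8 without replicate 2 of 0d), beside 4.47% of all genes, and DESeq2 and limma-voom also called none. The smallest unadjusted p at 1d belonged to Kcna6, another Kv1 gene, and to Kcnj10. Kcna6 was at 219 and 223 CPM at 0d, 239 and 233 CPM at 1d, 237 and 235 CPM at 3d, and 213 and 217 CPM at 30d. Both 1d libraries were above both 0d libraries, with a log2 fold change of 0.10 (SE 0.04, edgeR adjusted p = 0.9999).

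Kcnj10 was at 104 and 108 CPM at 0d, 99.0 and 87.9 CPM at 1d, 105 and 102 CPM at 3d, and 78.4 and 93.1 CPM at 30d. Both 1d and both 30d libraries were below the 0d and 3d libraries. The log2 fold change at 1d was -0.18 (SE 0.08, edgeR adjusted p = 0.9999), or -0.10 without replicate 2 of 1d. Its host cells are the satellite glia, whose 8 markers summed to 3541 and 3486 CPM at 0d, 3281 and 3392 CPM at 1d, 3418 and 3426 CPM at 3d, and 2932 and 3070 CPM at 30d. This sum was lowest at 30d, and 1 marker held 62.0% to 65.5% of it. Both libraries lay below both 0d libraries for 5 of the 8 markers at 1d, at 3d and at 30d, and above them for 1, 2 and 0 of the 8. How many of all genes tested separate in this way was not counted, so these counts have no background. The median log2 fold change of the 8 against 0d was -0.08 at 1d, -0.06 at 3d and -0.24 at 30d, with 1 marker called lower at 30d by edgeR, and 7 of the 8 had a fitted value below 0 from 3d to 30d. The part of satellite glia in the Kcnj10 values was not tested. In bulk RNA fewer cells of a type and less RNA per cell cannot be told apart. The sum of the 12 neuron markers was 20798 and 21411 CPM at 30d and lay between 21361 and 22062 CPM in the other libraries.

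**Figure D3:**
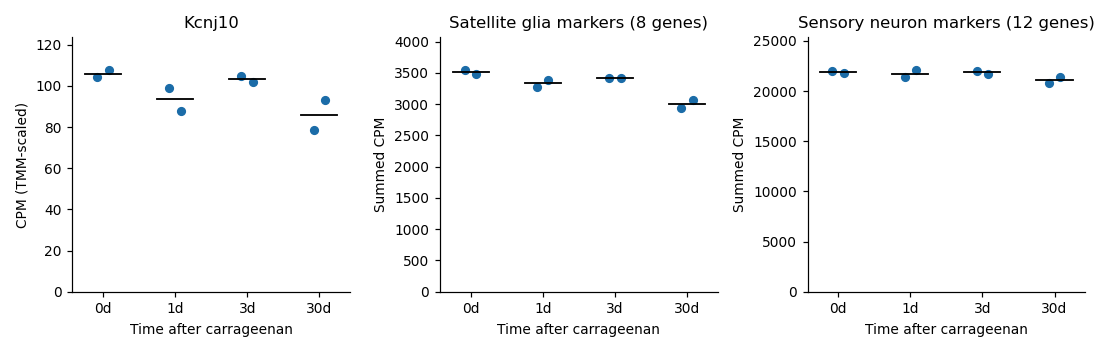
CPM of Kcnj10, summed CPM of 8 satellite glia markers and summed CPM of 12 sensory neuron markers (y axes, from 0) at each time point (x axes). Points are libraries and lines the mean of 2 libraries. Kcnj10, the satellite glia sum and the neuron sum each have their lowest mean at 30d, where Kcnj10 was at 78.4 and 93.1 CPM.

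At 3d again none of the 84 genes passed the threshold in edgeR against 0d, where 0.219% of all genes did. At an unadjusted p under 0.05 there were 14 (16.7%), 7 higher and 7 lower, beside 5.94% of all genes. This count was 7 without replicate 1 of 3d, 5 without replicate 2 of 3d and 8 without replicate 2 of 0d. DESeq2 called 1 of the 84, beside 107 of all genes, and limma-voom none of the 84. The smallest p belonged to the silent subunit Kcnv1, which had its highest values at 3d. Kcnv1, whose values are given below, had a log2 fold change of 0.26 against 0d (SE 0.06, edgeR adjusted p = 0.156).

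Between 3d and 1d none of the 84 genes passed in edgeR, DESeq2 or limma-voom, where edgeR called 0.289% of all genes. At an unadjusted p under 0.05 there were 5 (5.95%), beside 4.24% of all genes, with 1 without replicate 2 of 3d and 8 without either 30d library. Kcnv1 (log2 fold change 0.22, SE 0.06, edgeR adjusted p = 0.316) and Kcnk4 had the smallest p. Kcnk4, the mechanically gated TRAAK channel, was at 12.7 and 11.9 CPM at 0d, 12.3 and 12.2 CPM at 1d, 15.1 and 16.2 CPM at 3d, and 13.5 and 11.8 CPM at 30d. Both 3d libraries were the highest, and the log2 fold change against 1d was 0.35 (SE 0.11, edgeR adjusted p = 0.558). The exons counted for Kcnk4 overlap those of no other gene in the deposited table. Of the 50-base words of its longest transcript in GENCODE vM21, 21.7% also occur in transcripts of Catsperz.

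At 30d against 0d edgeR called none of the 84 genes and 0.0231% of all genes. At an unadjusted p under 0.05 there were 15 (17.9%), 6 higher and 9 lower, beside 12.3% of all genes. DESeq2 called 4 of the 84, Kcnb2, Kcnh5, Kcnj10 and Kcnt1, where it called 184 of all genes against 4 by edgeR, and limma-voom called none of the 84. Kcnh5 (EAG2), a voltage-gated channel of the EAG family, was at 10.8 and 10.8 CPM at 0d, 9.82 and 10.3 CPM at 1d, 9.43 and 10.5 CPM at 3d, and 6.77 and 6.95 CPM at 30d. Both 30d libraries lay below all 6 others. The log2 fold change against 0d was -0.65 (SE 0.12, edgeR adjusted p = 0.0664), and leaving out replicate 2 of 30d brought it under the threshold, where calls over all genes rose from 4 to 202. Against 1d, where edgeR called none of the 84 genes and 0.571% of all genes, the change of Kcnh5 was -0.55 (SE 0.13, edgeR adjusted p = 0.0822). At an unadjusted p under 0.05 that comparison had 15 of the 84 (17.9%), beside 11.7% of all genes (7 and 8 without replicates 1 and 2 of 3d, 25 without replicate 1 of 30d), with 2 called by DESeq2 (Kcnb2 and Kcnh5), which called 229 of all genes, and none by limma-voom.

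The comparison of 30d with 3d was the only one of the 6 in which edgeR called potassium channel genes, and all 3 were lower at 30d. They were Kcnv1, Kcng1 and Kcnb2, which encode silent subunits and a Kv2 subunit. This is 3 of 84 (3.57%), where 0.935% of all genes were called in either direction and 0.727% were called lower at 30d. At an unadjusted p under 0.05 there were 24 (28.6%), 13 higher and 11 lower at 30d, beside 13% of all genes, and 15 without replicate 2 of 3d.

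Kcnv1 (Kv8.1, chr15:45106284-45114934, minus strand, mm10) is a silent subunit known to reduce Kv2 current. It was at 40.8 and 40.7 CPM at 0d, 40.8 and 42.7 CPM at 1d, 48.4 and 49.1 CPM at 3d, and 37.6 and 37.9 CPM at 30d. Both 3d libraries lay above all others and both 30d libraries below all others. Kcnv1 fell by 0.37 on the log2 scale from 3d to 30d (SE 0.06, edgeR adjusted p = 0.0101), to 0.774 of its 3d value. It was also the 1 gene of the 84 called when 1d, 3d and 30d were tested against 0d together (edgeR adjusted p = 0.0285), where 1.02% of all genes were called. In that joint test 21 of the 84 (25%) had an unadjusted p under 0.05, beside 11% of all genes, and Kcnh5 came next (edgeR adjusted p = 0.0560). The 21 became 11 without replicate 1 of 3d and 9 without replicate 2 of 3d.

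Kcng1 (Kv6.1, chr2:168261698-168269331, minus strand) is also a silent partner of Kv2. It was at 3.84 and 3.49 CPM at 0d, 4.06 and 3.47 CPM at 1d, 4.52 and 5.13 CPM at 3d, and 2.27 and 2.68 CPM at 30d. As for Kcnv1, both 3d libraries were the highest and both 30d libraries the lowest. Kcng1 fell by 0.96 on the log2 scale from 3d to 30d (SE 0.20, edgeR adjusted p = 0.0371), to 0.514 of its 3d value. Its level of 1.59 CPM per kb was low beside that of Kcnv1, 9.40 CPM per kb.

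Kcnb2 (Kv2.2, chr1:15312452-15714214, plus strand) encodes a delayed rectifier. It was at 54.2 and 57.6 CPM at 0d, 52.1 and 60.0 CPM at 1d, 56.0 and 60.1 CPM at 3d, and 47.5 and 42.5 CPM at 30d. Both 30d libraries lay below the other 6, which overlapped with each other. Kcnb2 fell by 0.37 on the log2 scale from 3d to 30d (SE 0.08, edgeR adjusted p = 0.0375). Against 0d and 1d the 30d change was -0.31 and -0.32 (SE 0.08 for both, edgeR adjusted p = 0.136 and 0.119). No exon of Kcnv1, Kcng1 or Kcnb2 overlaps an exon of another gene.

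The 3 calls rest on both 3d libraries. Without replicate 1 and without replicate 2 of 3d, the log2 fold change from 3d to 30d was -0.38 and -0.36 for Kcnv1, -1.05 and -0.87 for Kcng1, and -0.42 and -0.32 for Kcnb2, while calls over all genes fell from 162 to 12 and 22. Without replicate 1 of 3d the edgeR adjusted p was 0.174 for Kcnv1, 0.317 for Kcng1 and 0.238 for Kcnb2, and without replicate 2 of 3d it was 0.209, 0.489 and 0.507. Kcng1 also missed the threshold without replicate 1 of 30d (adjusted p = 0.0531, the library with few Schwann cell and many red blood cell transcripts) and Kcnb2 without replicate 2 of 30d (adjusted p = 0.152), while without replicate 1 of 30d edgeR called 5 of the 84 genes and 525 of all genes. DESeq2, which called 376 of all genes where edgeR called 162, called 9 of the 84. Among them were these 3 and Kcnc1, Kcnh5, Kcnj10, Kcns1 and Kcnt1, and limma-voom called the same 3 as edgeR. Without robust estimation edgeR called only Kcnv1, with adjusted p = 0.0540 for Kcng1 and 0.0732 for Kcnb2. With 3d and 30d fitted alone Kcng1 missed the threshold (edgeR adjusted p = 0.0626).

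**Figure D4:**
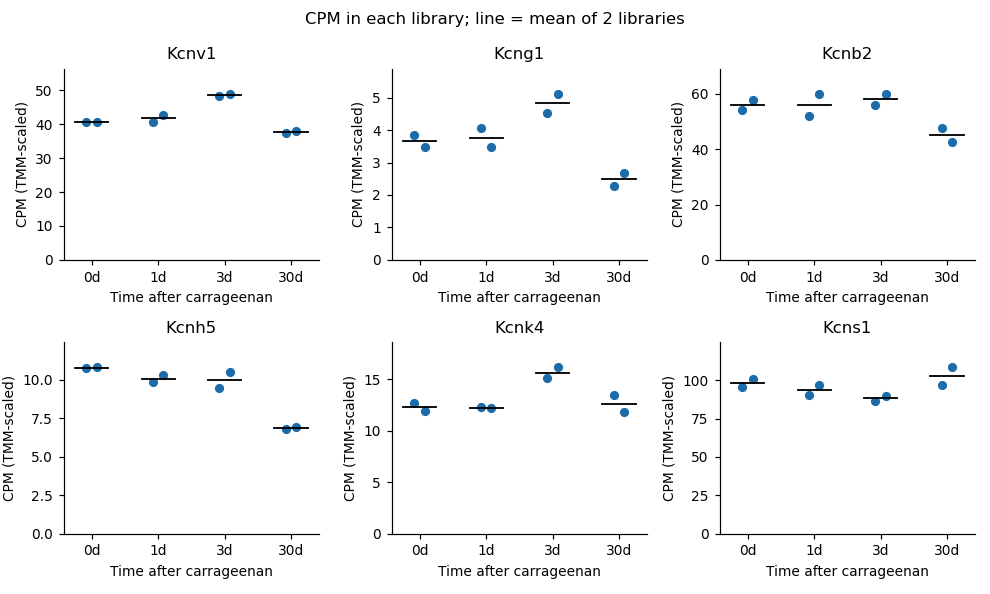
CPM (y axes, from 0) of Kcnv1, Kcng1, Kcnb2, Kcnh5, Kcnk4 and Kcns1 at each time point (x axes). Points are libraries and lines the mean of 2 libraries. Kcnv1 and Kcng1 are highest at 3d and lowest at 30d, Kcnb2 and Kcnh5 are lowest at 30d, Kcnk4 is highest at 3d, and Kcns1 is lowest at 3d.

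The Kv2 genes and the silent subunits form a group of 11 members, joined here after the calls had been seen, so that the 3 called genes are among the counts that follow. From 3d to 30d 5 of these 11 had an unadjusted p under 0.05, as did 19 of the other 73 members and 13% of all genes. The silent subunits did not share 1 course. Kcns1 was at 95.6 and 101 CPM at 0d, 90.7 and 96.9 CPM at 1d, 86.4 and 89.8 CPM at 3d, and 97.1 and 108 CPM at 30d, so its 3d libraries were the lowest. Kcns3, which lay between 56.8 and 63.5 CPM, showed no time point apart from the rest. The summed level of the 9 silent subunits was 80.9 ± 0.17 CPM per kb at 3d and 82.3 ± 1.0 CPM per kb at 30d (SD, n = 2).

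As a sum, the Kv7 genes stood highest at 30d. Their summed level was 57.7 and 60.1 CPM per kb at 30d and between 52.1 and 55.6 CPM per kb in the other 6 libraries. None of the 5 was called in edgeR in any comparison, although 3 had an unadjusted p under 0.05 from 3d to 30d (13% of all genes did), where DESeq2 called 1 of the 5 and 376 of all genes, and limma-voom none of the 5. Kcnq3 and Kcnq5, which can assemble with other Kv7 subunits, lay between 13.2 and 17.1 CPM and between 34.9 and 39.5 CPM.

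Kcnt1 was at 231 and 218 CPM at 0d, 246 and 223 CPM at 1d, 228 and 223 CPM at 3d, and 263 and 251 CPM at 30d, both 30d libraries standing above the rest. Kv4 genes summed to 97.4 CPM per kb at 3d (SD 0.031, n = 2), against 90.2 ± 4.4 CPM per kb at 0d and 89.3 ± 3.4 CPM per kb at 30d. Kcnd1 was at 243 and 267 CPM at 0d and at 275 and 277 CPM at 3d, and Kcnd3 at 166 and 165 CPM and at 181 and 176 CPM. No Kv4 gene was called in edgeR, DESeq2 or limma-voom, and 2 of the 3 had an unadjusted p under 0.05 at 3d, beside 5.94% of all genes.

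The 7 EAG family genes all had fitted values below 0 at 1d and again at 3d, both against the same 0d libraries. Their summed level was 84.8 and 86.2 CPM per kb at 0d and between 80.3 and 84.0 CPM per kb after injection. The largest member, Kcnh2, was at 176 and 184 CPM at 0d, 170 and 171 CPM at 1d, 166 and 162 CPM at 3d, and 171 and 191 CPM at 30d. The medians of the 7 were -0.08 at 1d and -0.11 at 3d on the log2 scale, where the median of all 84 was 0.00 and -0.01. None of the 7 was called in edgeR at these times, with 0 and 1 at an unadjusted p under 0.05 (4.47% and 5.94% of all genes) and none called by DESeq2 or limma-voom. Fitted values were also below 0 for all 3 BK beta genes at 1d and 3d and for all 4 KChIP genes at 3d, and at 30d 3 of the 7 EAG family genes were above 0.

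Among genes often studied in sensory neurons, none of the following was called in any comparison by edgeR with all 8 libraries fitted together and the filter on low counts, or by limma-voom. At 30d against 3d Kcnc1 was called by DESeq2, and by edgeR without that filter or without replicate 1 of 30d. At 3d against 1d Kcnj2 was called by edgeR with these time points fitted alone. Kcna1 lay between 661 and 763 CPM and Kcna2 between 526 and 625 CPM. Kcna4 lay between 22.8 and 26.4 CPM, Kcnc1 between 113 and 136 CPM and Kcnc4 between 65.3 and 77.7 CPM. Kcnk1 lay between 88.9 and 95.4 CPM, Kcnk18 between 14.9 and 18.6 CPM and Kcnk2 between 15.2 and 19.3 CPM. Kcnma1 was at 28.3 and 28.0 CPM at 30d, below the 30.0 to 34.8 CPM of the other libraries. Kcnj11 was at 14.4 and 13.7 CPM at 0d and at 12.01 and 10.7 CPM at 3d, where both libraries were below all others. Kcnj2 was at 9.03 and 5.66 CPM at 0d and lay between 5.48 and 10.6 CPM in the other libraries.

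**Figure D5:**
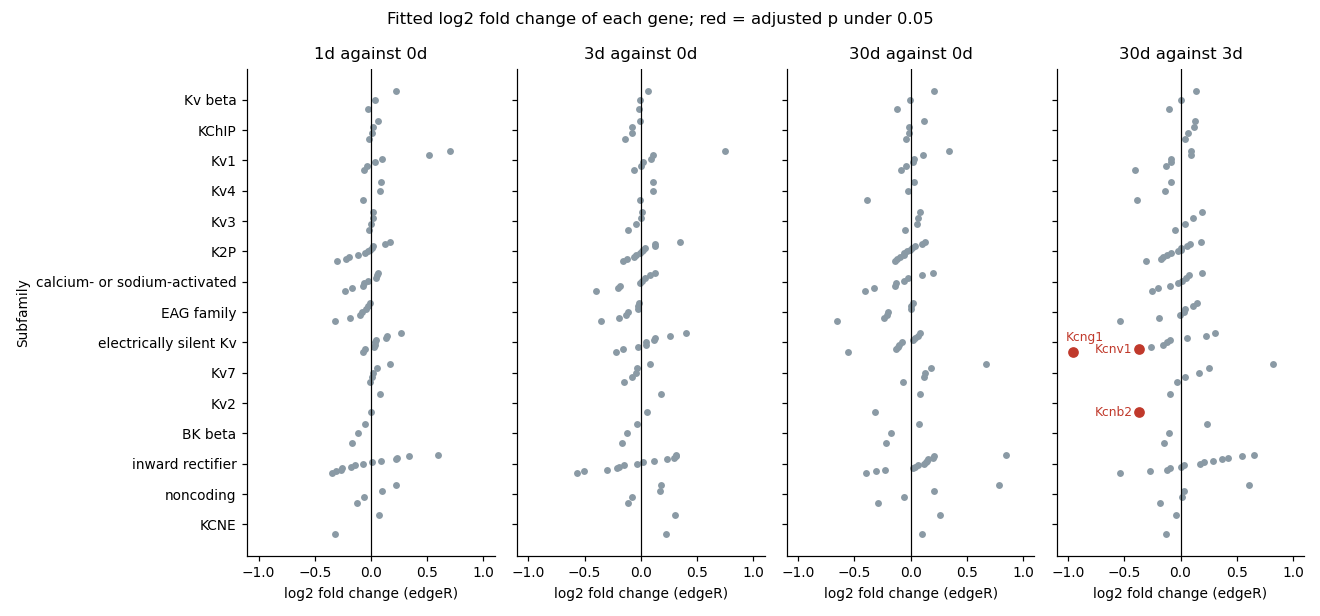
Fitted log2 fold change (x axes, edgeR) of each of the 84 genes by subfamily (y axis) in 4 comparisons. Red points are genes with an adjusted p under 0.05, which are the 3 genes Kcnv1, Kcng1 and Kcnb2 at 30d against 3d.

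Over all 84 genes the median change was close to that of all genes tested. From 3d to 30d the median log2 fold change was 0.00 for both, and the median size without regard to sign was 0.12 for the 84 and 0.11 for all genes. Against 0d the median size was 0.07 for the 84 at 1d, 0.11 at 3d and 0.11 at 30d, beside 0.08, 0.08 and 0.11 for all genes. The median standard error of a member was 0.11 on the log2 scale, and for the gene measured most precisely it was 0.04. With 2 libraries a group, changes of more than 2 standard errors could miss the threshold, as that of Kcna6 at 1d did.

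Genes outside the Kcn prefix whose products assemble with or anchor potassium channels were read from a list of 36, of which 34 were tested. None was called in any of the 6 comparisons in edgeR or limma-voom, with 0 of 34 (3d against 1d, beside 4.24% of all genes) to 8 of 34 (23.5%, 30d against 1d, beside 11.7% of all genes) at an unadjusted p under 0.05, and DESeq2 called 1, Ank2, at 30d against 0d. Amigo1, an adhesion protein that joins Kv2 channels, lay between 226 and 245 CPM. Its relative Amigo2 was at 42.6 and 41.6 CPM at 3d and at 37.7 and 33.5 CPM at 30d. Its log2 fold change from 3d to 30d was -0.24 (SE 0.07, edgeR adjusted p = 0.153). Amigo3 lay between 84.4 and 99.0 CPM. Vapa, which anchors Kv2 channels to the endoplasmic reticulum, was at 155 and 151 CPM at 3d and at 139 and 137 CPM at 30d. Its relative Vapb lay between 289 and 306 CPM. Dpp6 and Dpp10, which assemble with Kv4 channels, lay between 471 and 494 CPM and between 145 and 163 CPM.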

How the data were processed

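RNA of 8 libraries was sequenced, 2 for each of 0d, 1d, 3d and 30d. The authors used cutadapt 2.10 for trimming and STAR 2.7.5a for alignment to mm10, and counted read pairs on exons of UCSC genes with featureCounts 2.0.1, per the file headers and the submitters' processing notes. The deposited values are counts per gene, neither normalized nor filtered. Strand was ignored, a pair overlapping more than 1 gene was given to each of them, and multi-mapping pairs were left out.

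In R 4.3.3 with edgeR 4.0.16, 17328 genes passed filterByExpr. All libraries were scaled by TMM and fitted together by quasi-likelihood with robust estimation, with time point as the only term. P-values were adjusted by Benjamini-Hochberg over all genes tested, and a gene was called at an adjusted p under 0.05. A standard error is the absolute log2 fold change over the root of its F statistic. Levels per kb use the gene length in the deposited table. Precision depends on the counts of a gene as well as on the spread between pools, with standard errors at 1d against 0d from 0.04 to 0.55 on the log2 scale over the 84 genes. The libraries are pools, so p-values measure only the spread between these pools. With 2 libraries a group an exact permutation test could not go below 0.333.

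Genes named are those called, the 2 of smallest p in each comparison and in the joint test, the highest of each subfamily, a list of channels with a textbook role in ganglia, and those beside the CPM minimum. For the textbook channels levels are given, with no fold change or p beyond whether a tool called them. Kcna5 was named after its values were seen. The members, subfamilies and lists were chosen with earlier results of these data known. Exon overlaps were read from the exons in the deposited table. Shared 50-base words were read from the longest transcript of each gene against all transcripts of GENCODE vM21, in which all 84 genes were found. Alternatives were RLE scaling, no filter, DESeq2 1.42.0, limma-voom (limma 3.58.1), no robust estimation, the replicate number as a block, the compared time points alone, each library left out, other CPM minimums, and CPM without division by length. Results for some channel genes are left out and not reported here. No promoter or protein sequence was used here.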

Additional observations from a re-analysis of the deposited data

Results flagged for a closer look

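3 genes changed differently between time points after injection, by the direct edgeR contrast of 30d with 3d. The log2 fold change was -0.37 for Kcnv1 (edgeR adjusted p = 0.0101), -0.96 for Kcng1 (edgeR adjusted p = 0.0371) and -0.37 for Kcnb2 (edgeR adjusted p = 0.0375). Each had both 30d libraries below both 3d libraries, which adds no separate support, since this contrast picked the genes. With 2 libraries a time point, no single library could be tested as an outlier.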

How the results depend on the processing

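None of the fold changes printed with an adjusted p reversed under any alternative, and RLE scaling and limma-voom left every count of calls among the 84 unchanged. Counts over all genes stand in brackets. From 3d to 30d, where edgeR called 3 of the 84 genes (162), the count was 8 (358) without a filter on low counts, 9 (376) with DESeq2, 1 (92) (Kcnv1) without robust estimation and 0 (12) to 5 (525) with each library left out. With 3d and 30d fitted alone it was 4 (273), and Kcng1 was not among them. Kcnv1 passed the threshold under 13 of 15 alternatives, Kcng1 under 10 and Kcnb2 under 11. At 30d against 0d, where edgeR called 0 (4), the count was 3 (177) without the filter, 4 (184) with DESeq2 and 0 to 2 with each library left out, the 2 (202) without replicate 2 of 30d being Kcnh5 and Kcnj10. At 30d against 1d the count of 0 (99) became 2 (213) without the filter, 2 (229) with DESeq2 and 0 to 1 with each library left out, the 1 being Kcnb2 without replicate 1 of 1d (150) or replicate 1 of 30d (359). At 3d against 0d (38) DESeq2 called 1 (107), and at 3d against 1d (50) the fit of the compared time points alone called 1 (260) (Kcnj2). In the joint test of all time points the count of 1 (177) became 5 (463) without the filter, 6 (496) with DESeq2 and 0 to 2 with each library left out, 0 (51 and 56) without either 3d library and 2 without replicate 1 of 1d (167) or either 30d library (401 and 325). Where a time point was left with 1 library, that library was assumed to vary like the others. The cause of these differences was not tested.

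Replicate numbers are shared across time points. The correlations of same-numbered deviations over all genes tested lay between -0.0144 and 0.0438. With 2 libraries a time point, a pairing that touches only part of the genes could not be tested this way. With the replicate number as a block the count was 5 (225) from 3d to 30d, beside 3 (162) in the main fit. It was 1 (69) at 30d against 0d (Kcnh5), beside 0 (4), and 2 (280) in the joint test, beside 1 (177). No other count among the 84 changed. Calls over all genes rose from 60 to 73 at 1d and from 38 to 50 at 3d against 0d. They rose from 50 to 77 at 3d and from 99 to 159 at 30d against 1d.

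A minimum mean of 0.1 or 1 CPM would have kept 91 or 82 genes. Without division by gene length the shares of the pore-forming level were 33.3% for Kv1, 9.79% for Kv3, 9.59% for Kv4, 8.15% for Kv2, 8.02% for the EAG family, 7.84% for calcium- or sodium-activated channels, 7.39% for Kv7, 5.65% for silent subunits, 5.35% for inward rectifiers and 4.93% for K2P, since long transcripts then weigh more.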
